A study of Mus musculus with 14 samples.

Results

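Integrins, cadherins and claudins are the membrane proteins by which cells hold on to matrix, to blood cells and to each other. The members described here are the integrin chains, cadherins and claudins of mouse liver, chosen by a rule on gene symbols: symbols starting with Itga or Itgb, with Cdh (without Cdh1 and Cdh5) or with Cldn (without Cldn7). In the authors' table of results at 5 weeks, 40 of 14996 probe sets matched. They stood for 37 of 12904 named genes: 14 integrin alpha chains, 6 integrin beta chains, 7 cadherins, 9 claudins and Itgb1bp1, a cytoplasmic partner of the beta 1 chain that matches the letters but is no integrin. RefSeq lists 85 protein-coding mouse genes with such symbols, so 48 have no named row in that table and were not analysed here, among them Itgae and Itgb7. How the authors chose the rows of that table is not stated, and the higher group mean of every row was at least 4.94 on the log2 scale. Every member also had a control mean of at least 5.25.

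The study measured RNA of whole livers from male mice of C57/BL6J background on Affymetrix whole-transcript arrays. The 5-week comparison holds 2 control samples, whose genotype label gives floxed miR-122 alleles (loxP/loxP). Its 2 knockout samples are labelled loxP/loxP with Alb-Cre, in which hepatocytes make Cre from the promoter of the albumin gene. Both groups thus carry the floxed alleles, the controls carry no Cre, and effects of the Cre and of the deletion cannot be told apart. The titles call the controls wild type, and the study's design describes a germ-line knockout for the 5-week mice, against the genotype label. A further 5 control and 5 knockout samples at 8 weeks were not analysed here, as their probe sets could not be paired with gene names. MicroRNA-122 itself was not analysed here, so the deletion was not checked. Values are log2 signals, on which a difference of 1 is a 2-fold change; each array is 1 sample, and nothing in the labels says that each sample came from a separate mouse, so the spread behind the p-values may be technical. The 2 control arrays correlated at 0.985 over all probe sets, the 2 knockout arrays at 0.991, and arrays of different groups at 0.979 to 0.981. Control array 2 stood apart in a few listed markers (Ctrb1, Acta2 and Krt19), given with the marker lists. The 12 hepatocyte markers, such as albumin, were high on all arrays, with list means between 12.95 and 12.98.

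Integrins are pairs of an alpha and a beta chain that bind matrix proteins or counter-receptors outside the cell and the actin skeleton inside it. The beta 2 chain occurs on leukocytes, where it pairs with the chains of Itgal (LFA-1), Itgam (Mac-1), Itgax and Itgad, whereas chains such as beta 1, alpha v and alpha 5 are used by many cell types. Cadherins join neighbouring cells through calcium-dependent contacts anchored on catenins. Claudins form the strands of tight junctions, which in liver seal the bile canaliculi and the bile ducts.

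In knockout livers 11 of the 37 members rose and none fell. These were the leukocyte chains Itgam, Itgb2, Itgal, Itga4 and Itgax and the other integrin chains Itga6 and Itga8. The claudins Cldn4, Cldn6 and Cldn2 and the cadherin Cdh6 completed the 11. The rises of these 11 members lay between 0.57 and 1.19 on the log2 scale, and those of Itgam and Itgb2 were above 2-fold. "Rose" means here an adjusted p under 0.05 in limma, with Benjamini-Hochberg adjustment over all 12904 genes. By that rule 10.7% of all genes were called higher and 4.11% lower in the knockout, against 29.7% of the members called higher. With the authors' own p-values, adjusted in the same way, the authors' deposited table gave the same 11 members, against 9.64% of all genes called higher. The median difference was 0.24 over the members and 0.005 over all genes. Both knockout arrays lay above both control arrays in 21 members (56.8%), as they did in 32.1% of all genes, and below them in 5 members (13.5%), as in 27.0% of all genes. The groups overlapped in the other 11 members.

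**Figure D1:**
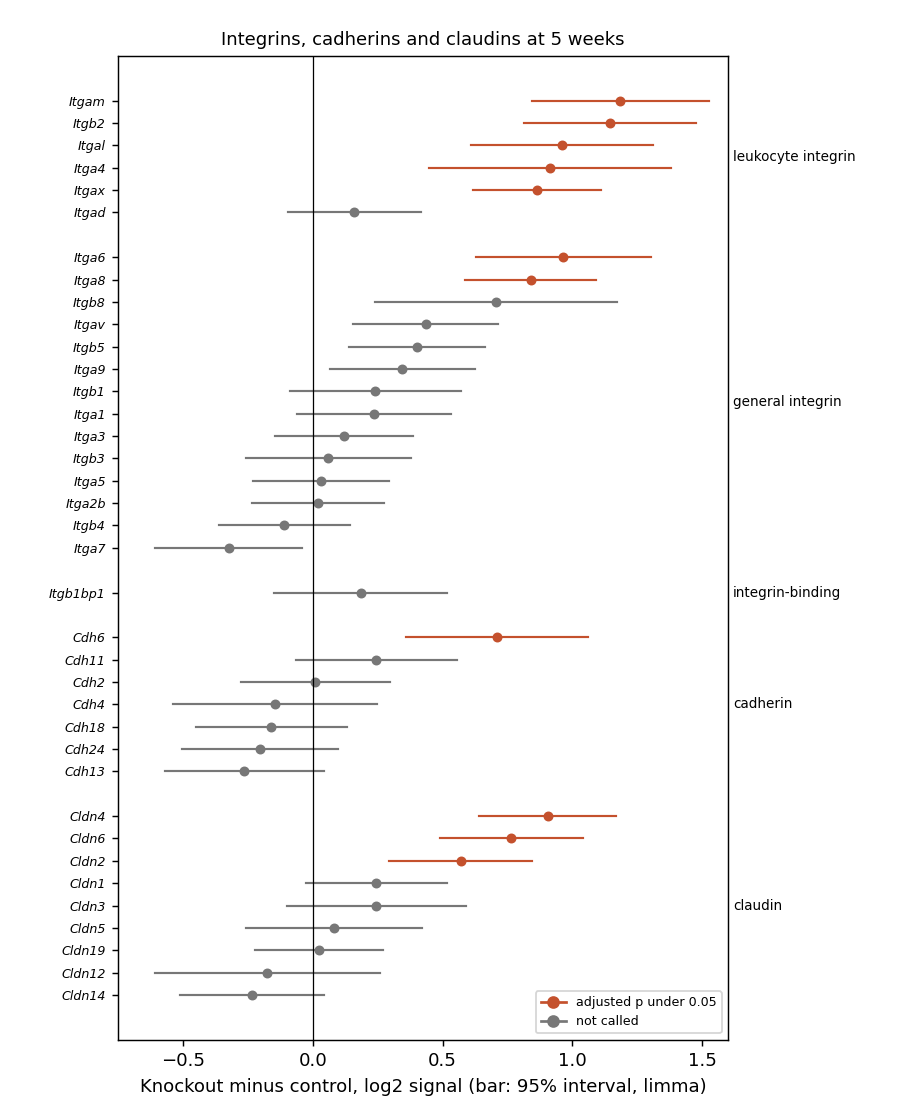
Difference between knockout and control in log2 signal for each of the 37 members at 5 weeks, with its 95% interval from limma, grouped by family. The 11 members in red rose, from 0.57 for Cldn2 to 1.19 for Itgam, and the 26 in grey were not called.

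**Figure D2:**
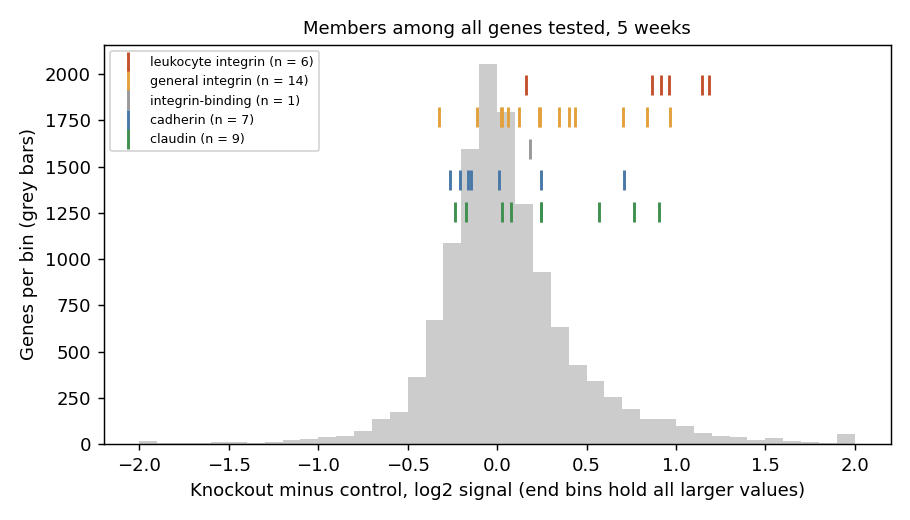
Number of genes in each bin of the log2 difference between knockout and control (grey bars, 12904 genes), with a tick for each member by family. Of the 6 leukocyte integrin chains, 5 lie at 0.865 or more, while the 7 cadherins lie between -0.265 and 0.71.

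The calls rest on 2 arrays in each group and on which rows enter the fit. When 1 fit and adjustment covered all 35556 probe sets of the deposited value table, no member and no other gene was called by limma. At an unadjusted p under 0.05, 15 members still stood in that fit, and the lowest adjusted p of a member was 0.0748, that of Itgax. With any 1 of the 4 arrays left out, limma called no gene either, and 11 to 17 members had an unadjusted p under 0.05.

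Among the integrins, the leukocyte chains and the other chains stood apart in the share called. Of the 6 leukocyte chains measured, 5 rose (83.3%) and 1 was not called, with a median difference of 0.94. Of the 14 other chains, 2 rose (14.3%, against 10.7% of all genes called higher) and 12 were not called. Their median was 0.24, against 0.005 over all genes. Both knockout arrays lay above both controls in 9 of these 14 (64.3%, against 32.1% of all genes) and below them in 2. The difference between the leukocyte chains and the other chains was not tested.

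Promoters of members that rose are shown to give the sequence context of a pair of neighbours on chromosome 7 and of the claudins with the lowest p. RefSeq promoters (GRCm38.p6) matched 26 of the 37 members, 8 of them among those that rose. Printed are the 250 bases before the start, 5′ to 3′ on the gene's strand, with capitals for GAGGAA or its reverse TTCCTC, the core bound by the myeloid factor PU.1, and for TGACTCA or its reverse TGAGTCA, the AP-1 motif; these motifs do not overlap here. The windows are chr7:128062390-128062639 on the + strand for Itgam, chr7:128129300-128129549 on the + strand for Itgax, chr5:134946935-134947184 on the - strand for Cldn4 and chr17:23679115-23679364 on the + strand for Cldn6.
Itgam: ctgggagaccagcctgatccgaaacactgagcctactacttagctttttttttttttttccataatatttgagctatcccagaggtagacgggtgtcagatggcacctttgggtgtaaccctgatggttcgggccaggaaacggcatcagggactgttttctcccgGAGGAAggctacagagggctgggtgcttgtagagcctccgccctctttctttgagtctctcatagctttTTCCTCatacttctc
Itgax: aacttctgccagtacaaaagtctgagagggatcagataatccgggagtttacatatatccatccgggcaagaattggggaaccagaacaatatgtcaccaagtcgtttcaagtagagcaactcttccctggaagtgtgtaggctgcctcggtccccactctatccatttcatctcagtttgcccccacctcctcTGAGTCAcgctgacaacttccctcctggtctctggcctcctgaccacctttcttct
Cldn4: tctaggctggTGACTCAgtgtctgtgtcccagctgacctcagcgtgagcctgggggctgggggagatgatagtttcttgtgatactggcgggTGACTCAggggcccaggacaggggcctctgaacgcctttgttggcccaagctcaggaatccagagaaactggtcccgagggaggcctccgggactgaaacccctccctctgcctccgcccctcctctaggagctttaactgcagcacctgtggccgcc
Cldn6: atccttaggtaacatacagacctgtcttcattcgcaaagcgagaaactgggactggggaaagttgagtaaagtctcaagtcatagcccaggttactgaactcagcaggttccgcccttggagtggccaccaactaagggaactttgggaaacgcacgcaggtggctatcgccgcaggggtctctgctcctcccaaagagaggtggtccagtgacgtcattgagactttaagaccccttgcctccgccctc

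The Itgam window holds GAGGAA or its reverse at 2 places, and the Itgax window holds none. TGACTCA or its reverse occurs at 2 places in the Cldn4 window and at 1 in the Itgax window, and the Cldn6 window holds neither motif. Of all 32851 RefSeq promoters, 23.3% hold GAGGAA and 4.5% hold TGACTCA on either strand in this window. Among the 26 members with a promoter, 11 hold the former and 2 the latter. Members were counted by gene, with the motif in any promoter of the gene, whereas the percentages count promoters. These counts and percentages thus cannot be set against each other. A match is a run of letters and says nothing about binding in these livers.

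Itgb2 encodes the beta 2 chain (CD18) common to the leukocyte adhesion integrins. Its log2 signal was 6.43 and 6.23 on the control arrays and 7.60 and 7.35 on the knockout arrays. Both knockout arrays lay above both controls, and the level was 2.21-fold higher (difference 1.15, SE 0.136, adjusted p = 0.00594, limma). Itgam, the alpha chain of Mac-1 (CD11b) on macrophages, monocytes and neutrophils, gave 5.43 and 5.15 in controls and 6.57 and 6.38 in knockouts. The groups did not overlap, and the rise was 2.27-fold (difference 1.19, SE 0.14, adjusted p = 0.00575). Itgax, the alpha chain of dendritic cells and some macrophages (CD11c), gave 5.26 and 5.24 in controls and 6.11 and 6.12 in knockouts. Its 2 arrays in each group nearly coincided, and the rise was 1.82-fold (difference 0.87, SE 0.101, adjusted p = 0.00552).

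Itgal, the LFA-1 chain (CD11a) by which lymphocytes and myeloid cells bind the ICAMs, gave 6.65 and 6.86 in controls and 7.86 and 7.57 in knockouts. The groups were apart, with a rise of 1.95-fold (difference 0.96, SE 0.144, adjusted p = 0.0111). Itga4, the chain of VLA-4 that binds VCAM-1, gave 5.67 and 6.22 in controls and 6.94 and 6.78 in knockouts. This was the widest spread between both controls among the members, 0.55, but it was smaller than the rise, which was 1.89-fold (difference 0.92, SE 0.192, adjusted p = 0.028). Itgad, the remaining partner of the beta 2 chain, gave 6.54 and 6.60 in controls and 6.77 and 6.69 in knockouts. Both of its knockout arrays were higher, yet the difference of 0.16 was not called (95% interval -0.095 to 0.415, adjusted p = 0.362). In the RefSeq gene order Itgam, Itgax and Itgad follow each other directly on chromosome 7, so members that rose and a member that was not called lie side by side.

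**Figure D3:**
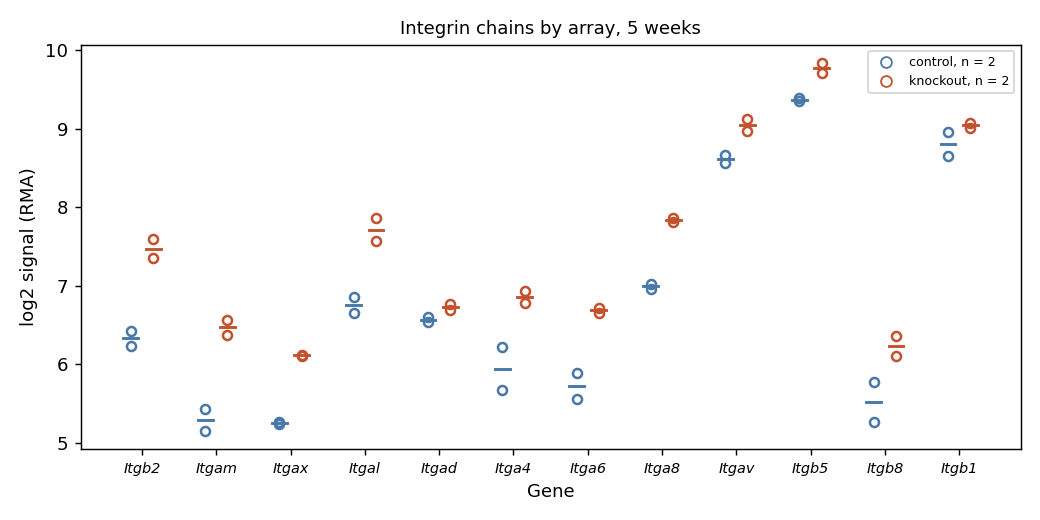
Log2 signal of 12 integrin chains on the 2 control arrays (blue) and the 2 knockout arrays (red) at 5 weeks, with a bar at each group mean. Levels of different genes come from different probes and cannot be set against each other. In all 12 chains both knockout arrays lie above both controls, though Itgad, Itgav, Itgb5, Itgb8 and Itgb1 were not called.

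Of the chains outside the leukocyte class, Itga6 and Itga8 rose. The alpha 6 chain, a laminin receptor of epithelia such as bile ducts and of endothelium, gave 5.56 and 5.89 in controls and 6.66 and 6.72 in knockouts. Its knockout arrays agreed within 0.06 and lay above both controls, a rise of 1.95-fold (difference 0.97, SE 0.139, adjusted p = 0.01). The alpha 8 chain, which pairs with beta 1 and is known from mesenchymal cells including hepatic stellate cells, gave 7.03 and 6.96 in controls and 7.81 and 7.86 in knockouts. This was a rise of 1.79-fold, with arrays close together in both groups (difference 0.84, SE 0.104, adjusted p = 0.00657).

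Next to them, 3 chains just missed the threshold. Itgav, the alpha v chain that binds vitronectin, osteopontin and latent TGF-beta, gave 8.56 and 8.67 in controls and 8.97 and 9.13 in knockouts (difference 0.43, adjusted p = 0.0555). Itgb5, a partner of alpha v, gave 9.39 and 9.36 against 9.84 and 9.71 (difference 0.40, adjusted p = 0.0583). Itgb8, another partner of alpha v, gave 5.27 and 5.78 against 6.36 and 6.10 (difference 0.71, adjusted p = 0.0598). Its difference was 0.45 without control array 1 and 0.96 without control array 2. In all 3 genes both knockout arrays lay above both controls. Itga9, a receptor for tenascin and osteopontin, differed by 0.34 (adjusted p = 0.1), also without overlap. Itga7, a laminin receptor of muscle, was the lowest member: 6.43 and 6.61 in controls against 6.24 and 6.15 in knockouts, a difference of -0.33 that was not called (adjusted p = 0.12).

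The remaining chains were not called. Itgb1, the beta chain of the collagen, laminin and fibronectin receptors, gave 8.65 and 8.96 in controls and 9.01 and 9.08 in knockouts. Its difference of 0.24 was not called (95% interval -0.09 to 0.57, adjusted p = 0.293) and ran from 0.085 without control array 1 to 0.395 without control array 2. Its other probe set differed by 0.03. Itga1, the collagen receptor chain abundant on sinusoidal and stellate cells, differed by 0.23 (95% interval -0.062 to 0.532, adjusted p = 0.256), with both knockout arrays above both controls as for Itgb1. Itga5, the fibronectin receptor chain, differed by 0.03, with an interval of -0.23 to 0.29. The platelet chains Itga2b and Itgb3 differed by 0.02 and 0.06, Itga3 by 0.12 and the hemidesmosome chain Itgb4 by -0.11; none of them was called. Itgb1bp1 differed by 0.18 (adjusted p = 0.418). Receptors such as alpha 6 beta 4 or alpha 4 beta 1 had an alpha chain that rose beside a beta chain that was not called.

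Among the claudins, 3 of 9 rose (33.3%, against 10.7% of all genes), none fell, and the median difference was 0.25. Cldn4, a barrier claudin of ducts and other epithelia, gave 6.16 and 6.15 in controls and 7.13 and 6.99 in knockouts. The controls agreed within 0.01, and the rise was 1.87-fold (difference 0.91, SE 0.108, adjusted p = 0.00607). Cldn6, known as a claudin of embryonic epithelia, gave 5.76 and 5.85 in controls and 6.65 and 6.49 in knockouts. Its groups were apart as well, with a rise of 1.7-fold (difference 0.77, SE 0.114, adjusted p = 0.0108). Cldn2, which forms pores for cations and water and lies in hepatocyte and duct junctions, gave 8.77 and 8.85 in controls and 9.30 and 9.46 in knockouts. It had the smallest rise among the members called, 1.49-fold (difference 0.57, SE 0.113, adjusted p = 0.0241).

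The other 6 claudins differed by -0.23 to 0.25, with adjusted p from 0.2 upward. Cldn1, a main claudin of bile canaliculi and, in human, an entry factor of hepatitis C virus, gave 10.80 and 10.94 in controls and 11.07 and 11.16 in knockouts. Both knockout arrays were higher, but the difference of 0.25 was not called (95% interval -0.026 to 0.516, adjusted p = 0.2). Cldn3, the other claudin typical of hepatocytes and ducts, gave 9.20 and 8.98 against 9.20 and 9.47 and overlapped (difference 0.25, adjusted p = 0.303). Cldn3 follows Cldn4 directly on chromosome 5, so the neighbours differ in their call. Cldn5, the claudin of endothelium, differed by 0.08 (95% interval -0.259 to 0.419). Cldn14, also present in hepatocyte junctions, was lower on both knockout arrays (6.58 and 6.73 against 6.95 and 6.83) without a call (adjusted p = 0.228). Cldn12 and Cldn19 differed by -0.17 and 0.03.

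Among the 7 cadherins, Cdh6 rose (14.3%, close to the 10.7% of all genes called higher), none fell, and the median difference was -0.14. Cdh6, K-cadherin, known from developing kidney, gave 5.53 and 5.17 in controls and 6.04 and 6.08 in knockouts. Both knockout arrays were higher, a rise of 1.64-fold (difference 0.71, SE 0.144, adjusted p = 0.0258). Cdh2, N-cadherin, which hepatocytes carry beside E-cadherin, gave 9.90 and 9.73 in controls and 9.76 and 9.89 in knockouts. These values overlapped, and the interval of the difference of 0.01 ran from -0.277 to 0.297. Cdh11, a cadherin of fibroblasts and activated stellate cells, differed by 0.25 without overlap (adjusted p = 0.256). Cdh13, which lacks a cytoplasmic part and binds adiponectin, was lower on both knockout arrays, 6.49 and 6.73 against 6.93 and 6.82, and was not called (adjusted p = 0.217). Cdh4, Cdh18 and Cdh24 differed by -0.14, -0.16 and -0.20, without a call.

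**Figure D4:**
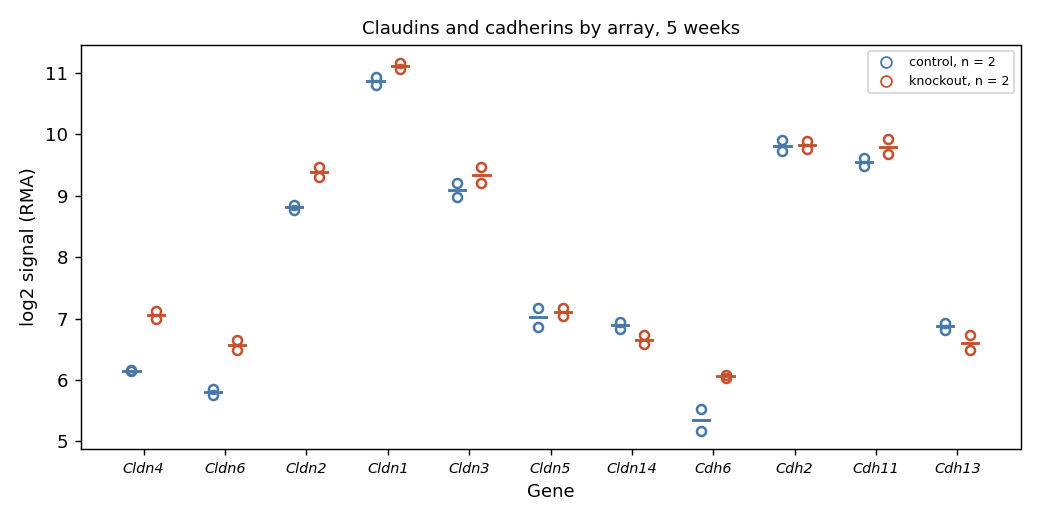
Log2 signal of 7 claudins and 4 cadherins on the 2 control arrays (blue) and the 2 knockout arrays (red) at 5 weeks, with a bar at each group mean. Both knockout arrays lie above both controls in Cldn4, Cldn6, Cldn2, Cldn1, Cdh6 and Cdh11, and the groups overlap in Cdh2, Cldn3 and Cldn5.

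The 3 family genes that the symbol rule leaves out all had higher values on both knockout arrays. Cdh1, E-cadherin, rose 3.35-fold, from 7.82 and 8.14 to 9.71 and 9.74 (adjusted p = 0.00258), more than any member. Cldn7 rose 2.5-fold (adjusted p = 0.00314), and the endothelial cadherin gene Cdh5 differed by 0.45 (adjusted p = 0.0501).

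Several members had signals near the level of genes that liver is not known to use. The 43 olfactory receptor genes of the table had a median level of 5.98. No row of that table had both group means below 4.94, so olfactory genes of lower signal are missing from this median. Of the 11 members that rose, 6 had a control mean below 5.98, namely Itgam, Itgax, Itga4, Itga6, Cldn6 and Cdh6. The knockout means of all 11 lay above 5.98, though those of Cdh6 (6.06) and Itgax (6.115) were close to it. As 5.98 is a median, some of the olfactory genes lie above it too. The size of the 6 rises from a control mean below 5.98 is less certain. Among the members not called, Itgb8 had a control mean below that level and Cdh24 a knockout mean below it. With genes below the median level of the table left out, 12 members remained, of which Cldn2 was called.

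The partners of the members were read from lists of known partners, with counts by the same test. These lists were chosen with earlier results of these data known. Integrin ligands rose in 20 of 28 measured genes, against 10.7% of all genes called higher, and none fell. Their median difference was 0.76. Osteopontin, Spp1, a ligand of alpha v and alpha 4 integrins, rose 9.41-fold, from 7.81 and 8.11 to 11.11 and 11.28 (adjusted p = 0.00137). Mfge8, a secreted bridge between alpha v integrins and apoptotic cells, rose 7.24-fold (adjusted p = 0.00142), nidogen Nid1 3.08-fold and fibrillin Fbn1 2.38-fold. Of the counter-receptors of the leukocyte chains, Vcam1, bound by alpha 4 beta 1, gave 6.81 and 7.47 in controls and 8.36 and 8.26 in knockouts (2.25-fold, adjusted p = 0.0195), and Icam1, bound by LFA-1 and Mac-1, rose 1.53-fold (adjusted p = 0.0155). Icam2 differed by 0.17 and was not called.

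Integrin adaptors rose in 5 of 24 genes and none fell, with a median difference of 0.26; of all genes 10.7% were called higher. Src, the kinase at focal adhesions, rose 1.98-fold (adjusted p = 0.00456), and Lims1, Actn1 and Parvg, the parvin of blood cells, rose 1.44-fold, 1.44-fold and 1.66-fold. Talin Tln1 differed by 0.23 and the leukocyte kindlin Fermt3 by 0.44 (adjusted p = 0.0519), both without a call. Of 12 catenins and cadherin partners, 2 rose, a share near that of all genes: Cdh1, named above, and beta-catenin, Ctnnb1, at 1.54-fold (adjusted p = 0.0207). In that list Ctnnd1 (difference 0.40) and Ctnna1 (0.37) were not called. Other tight junction genes rose in 7 of 19 and none fell, with a median difference of 0.24. Besides Cldn7 these included the strand proteins occludin, Ocln (1.96-fold, adjusted p = 0.0164), and Marveld3 (1.71-fold), while the scaffold Tjp1 differed by 0.24 (adjusted p = 0.207).

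Markers of several cell types moved with the members, and in whole liver a change in the number of cells of a type and in RNA per cell cannot be told apart. The marker lists, like the partner lists, were chosen with earlier results of these data known, and 10.7% of all genes were called higher. Macrophage and monocyte markers rose in 15 of 18 genes with a median difference of 0.97. Their mean level was 7.86 and 7.95 on the control arrays and 9.01 and 8.76 on the knockout arrays, and their summed signal was 12.62 and 12.73 against 13.80 and 13.60 on the log2 scale. Lyz2 (3.02-fold), Mpeg1 (2.9-fold), Tyrobp (2.19-fold) and C1qc (1.95-fold) had the smallest p. Dendritic cell markers rose in 5 of the 7 measured (9 were listed), with summed signals of 10.56 and 10.18 against 11.89 and 11.68. The 5 were Cd74 (3.47-fold), H2-Aa, H2-Ab1, Cd209a and Flt3. Zbtb46 was lower on both knockout arrays (difference -0.09) and Clec9a higher on both (0.52), without a call. Neutrophil markers rose in 4 of the 5 measured (8 were listed). Their summed signals were 7.91 and 7.72 against 9.08 and 8.62, all from genes with control means below 5.98. S100a8 of that list and Ccr2 of the macrophage list had control means of 4.78 and 4.785. As the higher group mean of every row was at least 4.94, both have a row only through the knockout, and their differences could only be positive. The pan-leukocyte gene Ptprc is in the macrophage list. The leukocyte chains had a mean level of 6.0 and 6.05 on the control arrays and 6.98 and 6.82 on the knockout arrays, and knockout array 1 had the higher list mean for these chains and for all 5 lists of macrophage, dendritic cell, neutrophil, T and NK cell and B cell markers. On the control arrays the order differed between lists, with control array 1 the higher for dendritic cell and neutrophil markers and control array 2 for the chains and the macrophage markers. Few lymphocyte and platelet markers had a row: 4 of 11 listed for T and NK cells, 3 of 5 for B cells and 2 of 8 for platelets. None of those measured was called, with medians of 0.18, 0.33 and 0.43, and the others could not be read. The part of these cells in the rise of the leukocyte chains was not tested.

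Of 9 cholangiocyte and progenitor markers measured (11 were listed) 6 rose, where 10.7% of all genes were called higher. The list had a median difference of 0.83 and summed signals of 10.78 and 10.77 against 11.92 and 12.14. Besides Spp1, the markers that rose included Prom1 (2.58-fold), Cd24a, Epcam and Sox9. The duct keratins Krt7 and Krt19 differed by 0.10 and -0.32 and were not called. Onecut1, also in that list, was lower on both knockout arrays (8.38 and 8.97 against 9.53 and 9.14) and was not called (difference -0.66, adjusted p = 0.107). Of 13 markers of stellate cells and fibroblasts 8 rose, with a median of 0.70. The summed signals of that list were 12.47 and 12.71 in controls against 13.28 and 13.28 in knockouts. Lum (4.52-fold) and Pdgfrb (2.16-fold) were among the 8, as were Col1a1, Col1a2 and Col3a1. These collagen genes and Spp1 are also in the list of integrin ligands, so the lists share genes. The other 5 stellate cell and fibroblast markers were not called. These were Lrat (difference 0.505), Reln (0.395), Ngfr (0.275), Des (0.095) and Acta2 (-0.235). Endothelial markers had a median of 0.11, with Lyve1 fallen to 0.574 times its control level and the other 11 not called. Hepatocyte markers differed by -0.14 to 0.17, and none of the 12 was called. No erythroid, pancreas or adipose marker was called (4 of 6, 2 of 6 and 3 of 5 listed genes measured, medians 0.18, -0.37 and -0.20). Some of these lists were uneven within a group. Erythroid list means were 10.40 and 9.90 in controls and 10.07 and 10.80 in knockouts, and pancreas list means 6.18 and 6.87 in controls and 6.12 and 6.18 in knockouts. Control array 2 stood above the other 3 arrays in Ctrb1, a pancreatic protease (7.32, against 5.74 on control array 1 and 5.87 and 5.88 in knockouts). The other pancreas marker measured, Cela1, gave 6.42 on control array 2, against 6.61 on control array 1 and 6.38 and 6.48 in knockouts. Control array 2 was also the highest in Acta2, smooth muscle actin (8.68, against 6.72, 7.46 and 7.47), and in Krt19 (7.23, against 6.04, 6.18 and 6.46). The part of these cells in the members' rises was not tested.

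**Figure D5:**
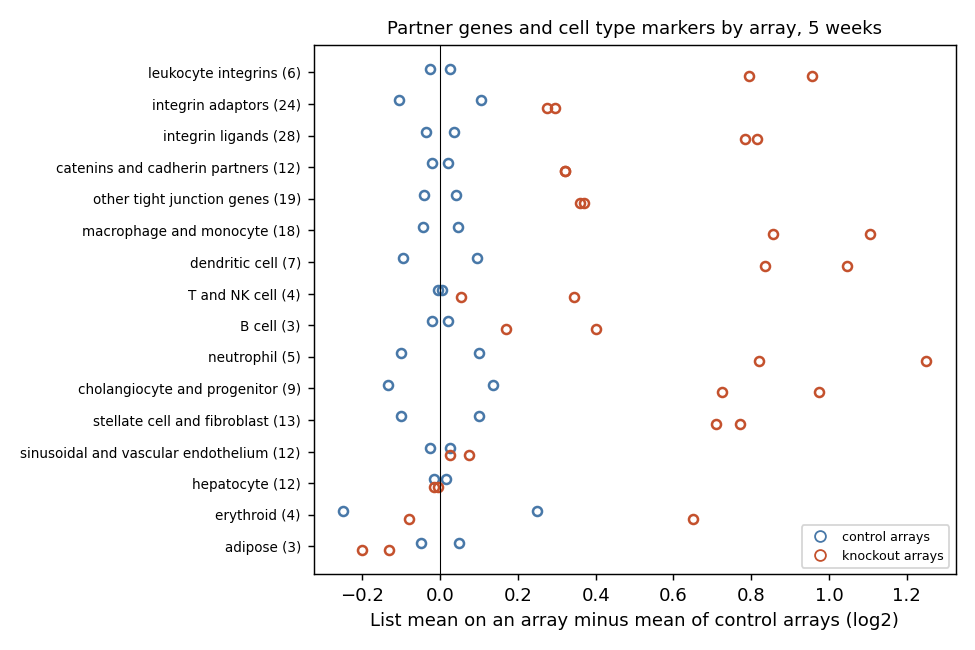
Mean log2 level of each list on each array, less the mean of both control arrays, for partner genes and cell type markers at 5 weeks, with the number of genes in brackets (lists with at least 3 measured genes). Leukocyte integrins (6.98 and 6.82 against 6.0 and 6.05) lie to the right of 0, as do macrophage markers (9.01 and 8.76 against 7.86 and 7.95), while hepatocyte and endothelial markers stay near 0.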

How the data were processed

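RNA was measured on Affymetrix arrays. The authors made the deposited log2 values per array with Affymetrix Expression Console and RMA, per the submitters' processing notes; versions, genome build and scan batches are not stated there. Per the file headers, the authors' result table adds log2 means by genotype, a fold (linear ratio) of knockout over control and a p-value by a test not stated. The log2 means equalled those of the deposited arrays within 0.005. Another 4 array columns of that table match no sample label and were not used.

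Probe sets were named through that table and the RefSeq gene table of GRCm38.p6: 13103 by accession, 1014 by symbol and 488 by synonym; 386 kept the table's own name and 5 with several names were left out. For 1065 genes with several probe sets, that with the highest mean was kept, without a filter on low values. Knockout was compared with control in limma 3.58.1 (R 4.3.3; lmFit, eBayes, two-sided) across all genes with 2 arrays in each group, and p-values were adjusted by Benjamini-Hochberg. The script was tested on simulated data. With so few arrays, their number limits precision. The 8-week fits that had been planned were not run.

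The members, 5 lists (the leukocyte integrins and the partner lists) and 13 marker lists were chosen with earlier results of these data known. The rule for names took every member called, up to 4 others per family with the smallest p and those of known role in liver. It also took up to 4 genes per list with the smallest p. Added after their values were seen were the remaining members and Vcam1, Icam1, Icam2, Fermt3, Tln1, Ctnna1, Tjp1, Epcam, Cd24a, Krt7, Krt19 and Onecut1. So were Acta2, Ptprc, Ccr2, Flt3, Clec9a, Zbtb46, Lrat, Reln, Ngfr, Des, Col1a2 and Col3a1. Some genes that the rule takes from the lists are not reported here. No list was tested. Alternatives were a replicate block, a filter on low levels, an intensity trend, a further quantile normalization, means of probe sets, leaving out each array, the authors' p-values and, added after the data were seen, 1 fit over all probe sets.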

Additional observations from a re-analysis of the deposited data

How the results depend on the processing

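Against 1915 genes and 11 members called, 829 and 7 were called with the replicate number as a replicate block, 1078 and 1 with genes below the median level left out (of 6461 genes and 12 members tested), and 0 and 0 in 1 limma fit over all 35556 probe sets, where 3186 genes and 15 members had an unadjusted p under 0.05. Same-numbered arrays did not deviate together (correlation of deviations 0.05), so the numbers were not taken as pairs; Itgal, Itga4, Cdh6 and Cldn2 were not called under the block (adjusted p 0.0547, 0.0837, 0.0701 and 0.0588). Without any 1 array, limma called from 0 to 0 genes and from 0 to 0 members, as a lone array leaves 1 residual degree of freedom and is assumed to vary like the other group; 2265 to 3494 genes had an unadjusted p under 0.05. With the trend, a further quantile normalization, means of probe sets and the authors' p-values, counts of genes lay between 1721 and 2170 and of members between 11 and 13, and all 11 stayed called; the trend added Itgav and Itgb8 (adjusted p 0.0457 and 0.0448). Among members not called, Itga2b (-0.01) and Itga5 (-0.018) changed sign with a further quantile normalization, and so did 7 without 1 array: Cdh2 (range -0.075 to 0.095), Cdh4 (-0.335 to 0.045), Cldn12 (-0.395 to 0.045), Cldn5 (-0.075 to 0.235), Itga2b (-0.02 to 0.06), Itga5 (-0.035 to 0.095) and Itgb3 (-0.085 to 0.205). The causes were not tested. The alternatives for 8 weeks were not run, as that table's probe sets could not be named here.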
